A study of Homo sapiens with 2 samples.

Results

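The RAB, RAB11FIP and SNX genes encode the RAB GTPases, several of their effectors and regulators, and the sorting nexins, which together direct membrane traffic between the organelles of the cell. They were taken by gene symbol: symbols that begin with RAB and a number, those of the RAB11 family interacting proteins (RAB11FIP), and SNX followed by a number, without symbols that contain a hyphen. A peak in an exon or intron was given to the gene named in its annotation and any other peak to the gene with the nearest start site. These genes held 998 of 175546 peaks, and 94 of the 19480 genes with a peak were among them. They comprised 57 RAB genes with 501 peaks, 9 RAB-named effectors and regulators with 126 peaks and 28 sorting nexins with 371 peaks. The RAB genes were counted by symbol. They include RAB5IF with 7 peaks and RAB9BP1 with 10, which were not placed in a role. By symbol RefSeq lists 104 protein-coding genes of this kind, of which 93 had a peak. The other gene with peaks was the transcribed pseudogene RAB9BP1. RAB17, RAB19, RAB34, RAB3C, RAB41, RAB6C, RAB9B, SNX15 and SNX20 had none. RAB37 and RAB42 had 3 peaks by gene ID, at folds of 1.76 to 2.45, but the symbols in the deposited list did not link them, so they were not counted.

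RNA that came down with CRTC2 was sequenced after immunoprecipitation (RIP-seq). The cells were HCCLM3, a human liver cancer line in long use, labelled as wild type in genotype, and input RNA of the same line was sequenced beside it. There was 1 library of each and no replicate, so nothing here has a test or a replicate check. No precipitation with a control antibody was analysed, so transcripts held by CRTC2 and transcripts carried through the procedure cannot be told apart. The series asks which transcripts CRTC2 binds in connection with YTHDF2, a reader of N6-methyladenosine in mRNA.

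RAB GTPases switch between a GTP-bound form on membranes and a GDP-bound form in the cytosol. Exchange factors (GEFs) load GTP, GTPase-activating proteins (GAPs) end the active state, and effectors such as tethers, motor adaptors and the RAB11FIP proteins bind the active form. Sorting nexins carry a PX domain that binds phosphoinositides. Many also have a BAR domain that bends membranes into tubules, and with retromer or retriever they return receptors from endosomes to the cell surface or the Golgi.

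CRTC2 is best known as a coactivator of CREB, a transcription factor that binds the cAMP response element, so the promoters that hold the full element are shown here. The letters TGACGTCA, which read the same on both strands, were searched in the 250 bases before the start and the first 50 bases after it. They lay there in 4 of the 73 genes with a promoter in the RefSeq table (5.48%), against 2.25% of all 27305 genes. By promoter it was 4 of 103, against 1.85% of all 35116 promoters. The core TGACG, searched on both strands and contained in the full element, lay in 31 of the 73 genes (42.5%) and 28.4% of all genes. By promoter it was 33 of 103, against 24.6% of all promoters. The stretches below are from RefSeq on GRCh38, 5′ to 3′ on the strand of the gene, with the element in capitals.
RAB25, chr1:156061068-156061135, plus strand: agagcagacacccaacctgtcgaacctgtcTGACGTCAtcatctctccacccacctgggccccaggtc
RAB11FIP3, chr16:425547-425614, plus strand: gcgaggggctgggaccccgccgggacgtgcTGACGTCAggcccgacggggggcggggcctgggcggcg
SNX5, chr20:17968826-17968893, minus strand: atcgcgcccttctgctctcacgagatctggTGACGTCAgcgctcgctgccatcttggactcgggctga
RAB5IF, chr20:36605597-36605664, plus strand: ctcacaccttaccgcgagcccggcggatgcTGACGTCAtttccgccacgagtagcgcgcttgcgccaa
The element began 62 bases before the start in RAB25, 72 in RAB11FIP3, 69 in SNX5 and 152 in RAB5IF. A match of letters is a description of these windows and not a bound site. Across the 73 genes, 34 had a peak that overlapped the window, 36 peaks in all. No share of all genes was set beside this count. Only 1 of the 36 peaks met the limit on q that is given below, in RAB2B with a fold of 4.40. Some of the 36 were far wider than the window, up to 273570 bp in RAB6B, so an overlap need not place the summit there. Of the genes printed above, RAB11FIP3 had a peak over the window, and the other printed genes had none. That RAB11FIP3 peak was 10222 bp wide, with a fold of 1.94 on 1 fragment.

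Each peak carries the authors' fold of RIP over input at its summit and the authors' q, the peak caller's p-value after adjustment. From the fold and the p of each peak the number of RIP fragments under the summit and the input level it was set against were worked out. Both have 1 added before the fold is taken, and 1 input fragment counts as 0.634 on the input level. The level was a whole multiple of that step in 35.3% of the 998 peaks and 36.4% of all peaks. Among peaks of these genes at q of at most 0.05 it was so in 33.3%. Other levels, such as the lowest of 0.0298, are not whole counts of input fragments at the summit. Intervals of folds are Poisson intervals of the RIP fragments, those of shares are Clopper-Pearson intervals, and all are 95% intervals that cover counting error alone. Those of shares treat every peak as independent, also peaks of the same gene. A peak is said to reach q where q is at most 0.05. Both libraries are of bulk cells, in which fewer cells with a transcript and less of it per cell cannot be told apart.

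Peaks of the trafficking genes were shallow, like the list as a whole. Their median fold was 1.89 (quartiles 1.76 and 2.21, from 1.41 to 7.77), against 1.89 over all peaks (quartiles 1.76 and 2.35, at most 29.1). The median peak rested on 2 RIP fragments (quartiles 1 and 4, at most 26), and 489 peaks (48.998%) rested on 1, against 46.2% of all peaks. The input level was at its lowest value, 0.0298, for 119 peaks (11.9%), against 10.3% of all peaks. The median width was 90 bp, against 101 bp over all peaks, and 97 peaks were wider than 10 kb. As markers of the cells, 13 of 14 hepatocyte genes had a peak (none in SERPINA1), 9 had an exon or UTR peak, with at most 13 fragments, and 1 reached q. FOXA2, KRT8, KRT18, TF and SERPINA1 had no exon or UTR peak, and 5 of the 14 had one of at least 5 fragments. A peak is RIP above input and does not measure expression. Of 6 blood markers 3 had a peak and of 6 endothelial and stellate markers 3 had one, with at most 2 and 3 fragments over exon and UTR peaks, and 1 endothelial or stellate gene reached q.

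Of the 998 peaks 21 reached q, or 2.10% (1.31 to 3.20), against a background of 1.63% of all peaks. A fold of at least 4 was found in 22 peaks (2.20%), also against 1.63% of all peaks. The interval around the share that reached q contains the background. By gene, 16 of 94 (17.0%) had a peak that reached q, against 11.3% of all genes and 13.2% of protein-coding genes with a peak. A fold of at least 4 was found in 17 genes, against 11.3% of all genes. They include RAB11FIP4, whose peak at that fold had its summit outside the gene. The trafficking genes also held more peaks each, a median of 8.5 against 5 over all genes and 7 over protein-coding genes. The gene count is therefore set beside genes with as many peaks. It was 0 of 21 with 1 to 4 peaks (3.57% of all genes), 4 of 31 with 5 to 9 (12.9%, against 8.69%), 7 of 31 with 10 to 19 (22.6%, against 16.3%) and 5 of 11 with 20 to 49 (45.5%, against 35.3%). The median of each gene's highest fold was 2.84, against 2.83 over all genes and 2.91 over protein-coding genes.

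The 3 kinds of genes are given in turn. Counts of peaks and genes, here and below, stand beside 1.63% of all peaks and 11.3% of all genes. Sorting nexins had 13 of 371 (3.50%, 1.88 to 5.92) in 9 of 28 genes, RAB genes 7 of 501 (1.40%, 0.564 to 2.86) in 6 of 57 genes, and the RAB-named effectors and regulators 1 of 126 (0.794%) in 1 of 9 genes. The intervals of the nexins and the RAB genes overlapped. Nexin genes that reached q were 0 of 4 with 1 to 4 peaks and 1 of 9 with 5 to 9. With 10 to 19 peaks they were 4 of 10, and with 20 to 49 peaks 4 of 5. All genes with as many peaks reached q in 3.57%, 8.69%, 16.3% and 35.3% of cases. SNX4 alone had 5 of the 13 nexin peaks, and without it the nexins had 8 of 340 (2.35%, 1.02 to 4.58) and all trafficking genes 16 of 967 (1.65%, 0.949 to 2.67). The nexin interval lay above 1.63% with SNX4 and contained it without SNX4. Among the trafficking genes SNX4 and RAB2B had at least 2 peaks that reached q, out of 446 such genes in the list, and SNX4 was 1 of 23 genes in the list with at least 5.

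**Figure D1:**
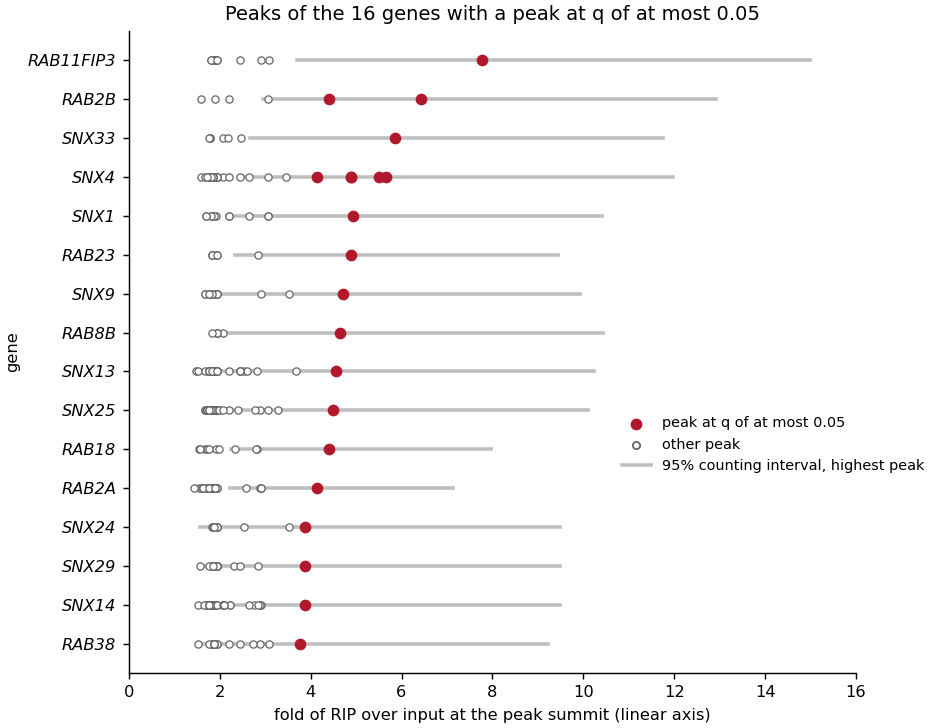
Fold of RIP over input (linear horizontal axis) for every peak of the 16 genes that reached q, one gene per line, with red points for peaks at q of at most 0.05, open points for the others and a grey line for the 95% counting interval of the highest peak. RAB11FIP3 has the highest point at 7.77 with other peaks at or below 3.09, and SNX4 has 5 red points between 4.14 and 5.67.

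SNX4 stood out by the number of its exons that reached q. SNX4 is a BAR domain nexin of endosomal recycling that returns the transferrin receptor to the surface and, with its partners SNX7 and SNX30, takes part in autophagy. It held 31 peaks on chromosome 3, and 11 of its 14 exons had an exon peak, with a median fold of 3.46 (1.68 to 5.67). Exon 3 (chr3:125497822-125498176) had 8 RIP fragments against an input level of 0.634, a fold of 5.51 (2.73 to 10.3). Exon 7 (chr3:125480225-125480319) had 5 fragments against 0.0589, a fold of 5.67 (2.48 to 11.96). Exon 11 (chr3:125457238-125457337) had 11 fragments against 1.90, a fold of 4.14 (2.24 to 7.13). Exons 8 and 12 each had 7 fragments against 0.634, a fold of 4.90 (2.33 to 9.44). These 5 are the exons that reached q, so their intervals lie high by that choice, and in 3 of them the input level was that of 1 fragment. The highest exon that missed q was exon 6, at 3.46 (1.40 to 8.44) on 3 fragments against 0.157. All 12 SNX4 intron peaks rested on 1 fragment and reached at most 1.94. Its deepest peak, in the promoter class, had 12 fragments against 6.34 and a fold of 1.77 (0.982 to 2.99). The pair of SNX4 peaks classed as 3′ UTR lay before the gene's start, at 2.21 and 2.45. Its partners had lower peaks, 3.06 (1.28 to 6.88) in SNX30 and 2.68 (1.11 to 7.36) in SNX7, with intervals that overlap that of SNX4.

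**Figure D2:**
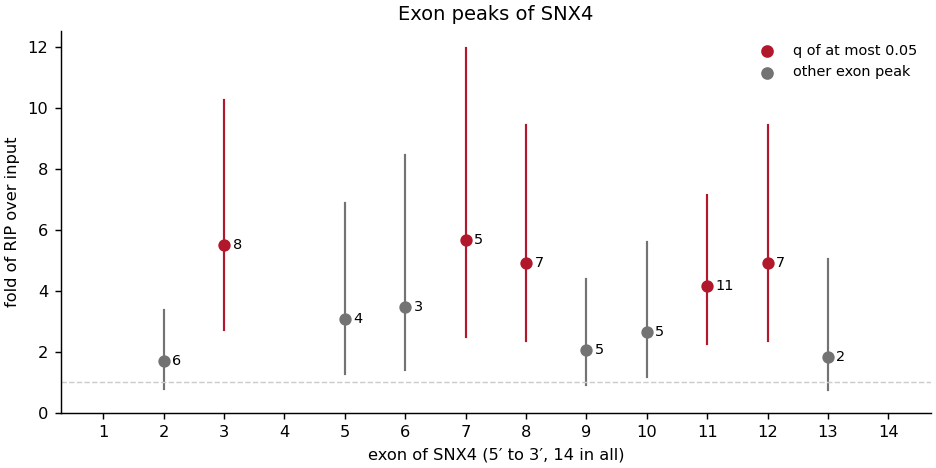
Fold of RIP over input for the 11 exon peaks of SNX4 by exon number from 5′ to 3′, with lines for the 95% counting intervals, the RIP fragments at each summit beside the points and a dashed line at a fold of 1. Exons 3, 7, 8, 11 and 12 (red, q of at most 0.05) lie between 4.14 and 5.67, and the other exon peaks lie between 1.68 and 3.46.

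The other BAR domain nexins that reached q were SNX33, SNX1 and SNX9. SNX33 and SNX9 are nexins with an SH3 domain that remodel the plasma membrane during endocytosis. SNX33 had 6 fragments against 0.196 in its 3′ UTR (chr15:75656963-75657233), a fold of 5.85 (2.68 to 11.8). SNX9 had 5 against 0.275 in exon 10 of 18 (chr6:157921591-157921691), a fold of 4.71 (2.06 to 9.94). SNX18, another member of that subfamily, reached 3.06 (1.28 to 6.88) without reaching q. SNX1, which pairs with SNX5 or SNX6 on endosomal tubules that carry receptors to the Golgi, had 5 against 0.216 in exon 6 of 15 (chr15:64126082-64126191), a fold of 4.93 (2.16 to 10.4). Its close relative SNX2 had 2.65 (1.16 to 5.59) at its highest peak, SNX5 had 2.88 (1.56 to 4.96) and SNX6 had 3.35 (1.40 to 7.54). None of these 3 reached q, and each interval overlaps that of SNX1. Of the 12 BAR domain nexins 4 had a peak that reached q, 8 of 134 peaks (5.97%), or 3 of 103 (2.91%) without SNX4.

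In the group taken here as the RGS subfamily of nexins, proteins anchored in the endoplasmic reticulum, 3 of 4 genes had a peak that reached q. By peak it was 3 of 115 (2.61%), against 1.63% of all peaks. SNX13 had 4 fragments against 0.0982 in its 5′ UTR (chr7:17897305-17897341), a fold of 4.55 (1.90 to 10.2), and SNX25 had 4 against 0.114 in exon 18 of 19 (chr4:185362650-185362703), a fold of 4.49 (1.88 to 10.1). SNX14, which sits where the endoplasmic reticulum meets lipid droplets, had 3 against 0.0298 in its 5′ UTR, a fold of 3.88 (1.57 to 9.48). SNX25 held 40 peaks and SNX13 37, the most of any trafficking gene, and SNX14 held 29, and 35.3% of all genes with 20 to 49 peaks had one that reached q. The fourth member, SNX19, reached 3.67 (1.61 to 7.75) on 5 fragments.

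SNX14, SNX24 and SNX29 shared the same value. Each rested on 3 fragments at the lowest input level, in peaks of 8336 bp, 2896 bp and 65288 bp, and none has a peak that reached q among peaks of at most 1 kb. At that input level 1 fragment gave a fold of 1.94 (103 peaks), 2 gave 2.91 (12 peaks) and 3 gave 3.88 (3 peaks). SNX10, a nexin needed for bone resorption by osteoclasts, stood at 3.98 (1.66 to 8.95) on 4 fragments and missed q. SNX3, which works with retromer to recycle the Wnt carrier protein Wntless, reached 2.32 (1.38 to 3.68) on 16 fragments against 6.34.

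The FERM domain nexins bind the tails of cargo receptors, and 0 of their 3 genes had a peak that reached q. SNX27, whose PDZ domain links receptors to retromer, reached 3.67 (1.61 to 7.75) on 5 fragments against 0.634 in exon 6 of 12. Its exon 9 was deeper, with 19 fragments against 7.603 and a fold of 2.32 (1.45 to 3.56). SNX17, which recycles integrins through retriever, reached 2.41 (1.10 to 4.85). SNX31 had 1 peak of 1 fragment, with its summit outside the gene.

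Among the RAB GTPases of the early secretory pathway, RAB2B, RAB18 and RAB2A reached q. RAB2A and RAB2B act at the Golgi, and RAB18 acts on the endoplasmic reticulum and lipid droplets. RAB2B had 6 fragments against 0.0884 in exon 5 of 7 (chr14:21463701-21463744), a fold of 6.43 (2.94 to 12.9). A second RAB2B peak in the promoter class (chr14:21476498-21476653) had 4 against 0.137, a fold of 4.40 (1.84 to 9.88). RAB2A had 11 against 1.90 in exon 6 of 7, a fold of 4.14 (2.24 to 7.13). RAB2B held 6 peaks with a median fold of 2.63, of which 0 lay in introns and 2 rested on 1 fragment. RAB2A held 34 with a median of 1.81, of which 28 lay in introns and 23 rested on 1 fragment. The medians of these paralogs are thus of unlike kinds of peaks. The intervals of the highest peaks of RAB2A and RAB2B overlapped. RAB18 had 9 against 1.27 in exon 2 of 8 (chr10:27509917-27509960), a fold of 4.41 (2.26 to 7.98). RAB1A, the GTPase of transport from the endoplasmic reticulum to the Golgi, had 21 fragments against 10.1 at its highest peak, a fold of 1.98 (1.26 to 2.97). RAB6A, which acts within the Golgi and from it to the endoplasmic reticulum, reached 2.65 (1.16 to 5.59).

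The early endosome RABs had 0 of 65 peaks that reached q, against 1.63% of all peaks. RAB5A, a master regulator of early endosome fusion, had the highest of them, with 8 fragments against 1.27 in the promoter class and a fold of 3.97 (1.96 to 7.39). RAB5B reached 2.60 (1.19 to 5.23) and RAB5C 2.57 (1.04 to 6.28), and the summit of the RAB5B peak lay outside the gene. RAB20 and RAB22A each stood at 3.06 (1.28 to 6.88) on 4 fragments against 0.634. The other 3 genes of this role stood at 2.84 (RAB24), 2.73 (RAB21) and 2.39 (RAB31). The RAB24 and RAB31 peaks had their summits outside the gene.

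Of the recycling and surface delivery RABs 1 of 13 genes reached q, against 11.3% of all genes. RAB8B, a GTPase of delivery from the Golgi to the surface, had 4 fragments against 0.0786 in exon 3 of 8 (chr15:63249682-63249730), a fold of 4.64 (1.94 to 10.4). Its paralog RAB8A reached 2.24 (1.29 to 3.65) on 14 fragments against 5.70, and the intervals overlap. RAB10, which brings glucose transporters to the surface, reached 3.66 (1.48 to 8.93) in an intron peak on 3 fragments, while its exon peaks lay at 1.53 to 1.81 on 18 to 23 fragments. RAB14 reached 3.45 (1.76 to 6.23) on 9 fragments in exon 7 of 8. RAB35 reached 2.82 (1.56 to 4.76) on 12. RAB11A, the GTPase of the recycling endosome, reached 2.71 (1.10 to 6.61) on 3 fragments, and RAB11B 1.69 (0.864 to 5.54) on 1. RAB25, the epithelial member of the RAB11 group, had a single peak at 1.67 (0.794 to 3.21) on 7 fragments. The summit of that peak lay outside the gene.

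Late endosome and lysosome RABs included 1 of 6 genes that reached q. RAB38, a GTPase of melanosomes, had 3 fragments against 0.0589 in a peak classed as intergenic (chr11:88107759-88107904), a fold of 3.78 (1.53 to 9.22). RAB29, which recruits the kinase LRRK2 to membranes, reached 3.24 (1.31 to 7.90). RAB7A, the main GTPase of late endosomes, held 30 peaks, the highest at 2.89 (1.195 to 7.91) on 2 fragments in an intron peak of 10604 bp. Its deepest peak, in exon 5 of 6, had 26 fragments against 16.5 and a fold of 1.55 (1.03 to 2.24).

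RAB GTPases of regulated secretion had 0 of 44 peaks that reached q, against 1.63% of all peaks. RAB3D reached 4.11 (1.72 to 9.24) and RAB3B 3.69 (1.54 to 8.31), both on 4 fragments in the promoter class. RAB3A reached 2.91 (1.21 to 7.99) on 2 fragments in a peak of 71931 bp with its summit outside the gene. RAB27A, which docks secretory vesicles and melanosomes, reached 2.07 (0.904 to 4.37). Among the RAB40 genes, whose SOCS box recruits a ubiquitin ligase, RAB40B reached 4.28 (1.96 to 8.61) on 6 fragments and RAB40C 3.67 (1.61 to 7.75) on 5, and neither reached q. RAB40A had 1 peak and RAB40AL 2, all on 1 fragment and with summits outside the gene.

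RAB23, which in the mouse restrains Hedgehog signalling and acts at cilia, reached q with 7 fragments against 0.634 in exon 2 of 7 (chr6:57210253-57210369), a fold of 4.90 (2.33 to 9.44). RAB28, a GTPase of photoreceptor cilia, stood at 3.53 (1.68 to 6.80) with 7 fragments against 1.27 and missed q. The same number of fragments thus met an input level that was 1 step lower in RAB23.

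RAB11FIP3 had the highest fold of all trafficking genes. The protein links RAB11 to the endosomes that move to the cleavage site when cells divide. Its peak lay at exon 7 of 15 (chr16:493917-498796, 4880 bp) with 7 fragments against the lowest input level of 0.0298, a fold of 7.77 (3.70 to 14.98) and a −log10 q of 10.4. It was the only peak of more than 3 fragments at that input level among the 998. Among RAB11FIP3 peaks of at most 1 kb the highest fold was 3.09, and none reached q. The other RAB11 family interacting proteins lay lower, with 4.28 (1.96 to 8.61) in RAB11FIP4, 3.57 (1.49 to 8.03) in RAB11FIP1, 3.06 (1.28 to 6.88) in RAB11FIP5 and 2.41 (1.10 to 4.85) in RAB11FIP2. That RAB11FIP4 peak lay before the gene's start, with its summit outside the gene. The highest RAB11FIP4 peak with its summit in the gene was 3.19 (1.29 to 7.78) on 3 fragments.

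RAB3GAP1 and RAB3GAP2, which form a complex that is a GAP for RAB3 and a GEF for RAB18, each had a peak at a fold of at least 4 without reaching q. RAB3GAP2 had 4 fragments against 0.189, a fold of 4.21 (1.76 to 9.46), and RAB3GAP1 had 4 against 0.222, a fold of 4.09 (1.71 to 9.20). The exchange factor genes RAB3IL1 and RAB3IP reached 2.91 (1.21 to 7.99) and 2.45 (0.991 to 5.98). The q limit fell between close values. Just inside it lay RAB18 at q of 0.0415 and SNX4 exon 11 and RAB2A at 0.0373, and just outside lay RAB3GAP2 peaks at 0.0585 and 0.0620 and RAB10 at 0.0996.

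**Figure D3:**
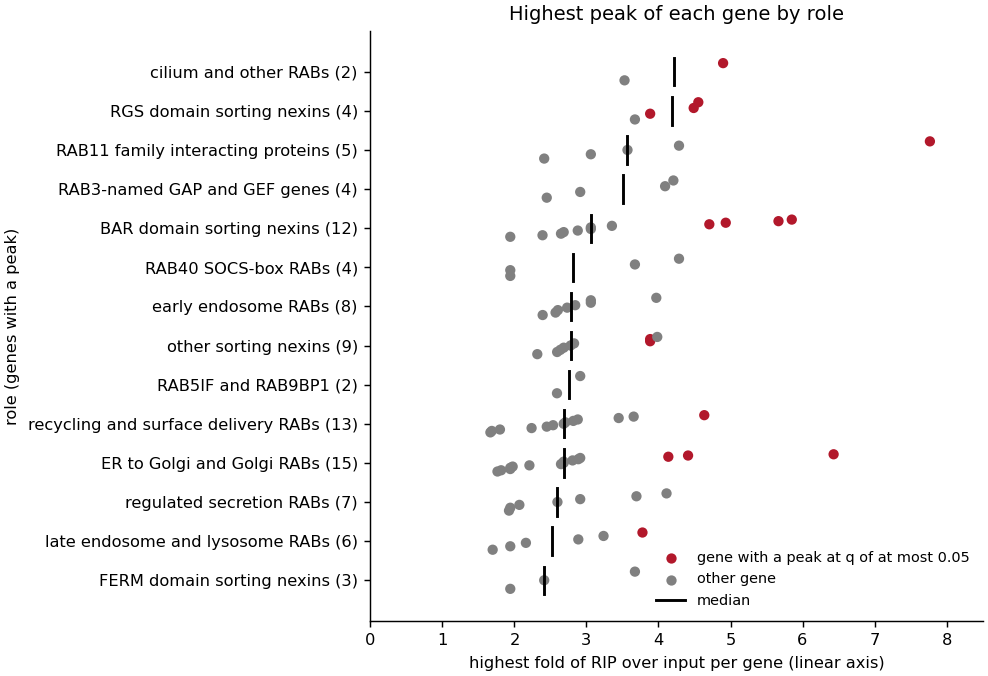
Highest fold of RIP over input per gene (linear horizontal axis) for the 94 genes by role, with red points for genes that reached q, grey points for the others and black bars for the median of each role. Genes that reached q occur in 8 of the 14 rows, and the highest single value is 7.77 in RAB11FIP3.

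The deepest peaks, in genes such as RAB7A, RAB11A and RAB1A, had low folds. There were 76 peaks of at least 12 fragments in 26 genes, with folds of 1.41 to 2.82, and 0 of them reached q (up to 4.74%), against 2.96% of all peaks of that depth. RAB11A had 26 fragments against 12.04 at its start, a fold of 2.07 (1.38 to 2.998). RAB1A had 25 against 13.9, a fold of 1.74 (1.15 to 2.54). RAB5C had 23 against 15.8 and a fold of 1.43. RAB7A (1.55), RAB8A (1.61, 23 against 13.9), SNX3 (1.61, 21 against 12.7) and SNX12 (1.47, 20 against 13.3) were of the same order. The summit of that RAB8A peak lay outside the gene. The deepest RAB8A peak with its summit in the gene had 17 against 10.8, a fold of 1.53 (0.926 to 2.40). The peaks that reached q rested on fewer fragments. Peaks of 5 to 11 fragments reached it in 13 of 145 cases (8.97%, 4.86 to 14.8), against 3.99% of all peaks of that depth. SNX4 gave 5 of the 13, and without it the count was 8 of 137 (5.84%, 2.55 to 11.2). The interval lay above 3.99% with SNX4 and contained it without SNX4. For 2 to 4 fragments 8 of 288 peaks reached q (2.78%, against 2.49%), and no peak of 1 fragment did.

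**Figure D4:**
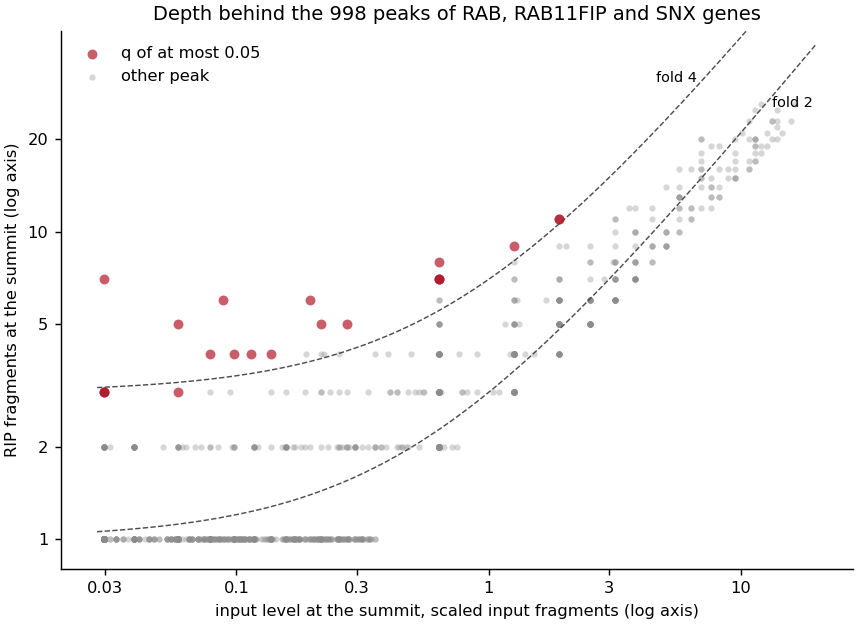
RIP fragments at the summit against the input level (both axes logarithmic) for the 998 peaks. Red points are peaks at q of at most 0.05, grey points are the others and dashed lines mark folds of 2 and 4. Red points lie at 3 to 11 fragments and input levels of at most 1.90, and the peaks of at least 12 fragments lie below a fold of 4.

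Peaks that reached q lay mostly in exons, in these genes as in the whole list, while over all peaks of the trafficking genes introns held a larger share than over the other peaks of the list. Exons held 26.6% of the 998 peaks (23.8 to 29.4), against 30.4% of all other peaks, and introns held 34.5% (31.5 to 37.5), against 26.6%. Promoters held 17.9% and 3′ UTRs 14.4%, against 20.9% and 13.8% of all other peaks. RAB10 and RAB2A, with 30 and 28 intron peaks, and RAB7A, with 24, added most to the intron class. In exons 15 of 265 peaks reached q (5.66%, 3.20 to 9.16), against a background of 2.98% of all exon peaks. Without the 11 exon peaks of SNX4, of which 5 reached q, it was 10 of 254 (3.94%, 1.90 to 7.12). That interval contains the background, and the interval with SNX4 lay above it. In introns 0 of 344 did (up to 1.07%), against 0.375% of other intron peaks. Of the 21 peaks that reached q, 15 were exon peaks (71.4%, 47.8 to 88.7), against 55.6% of all peaks of the list that reached q. Of the others 2 lay in 5′ UTRs, 1 in a 3′ UTR, 2 in promoters and 1 was intergenic. Internal exons held 97.7% of the exon peaks and last exons 2.26% (0.835 to 4.86), against 92.1% and 7.91% of all exon peaks. First exons mostly fall in the promoter class, which covers 3000 bp around a start. An exon or UTR peak was found in 79 of 94 genes (84.0%), against 67.7% of all genes and 77.0% of protein-coding genes with a peak.

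**Figure D5:**
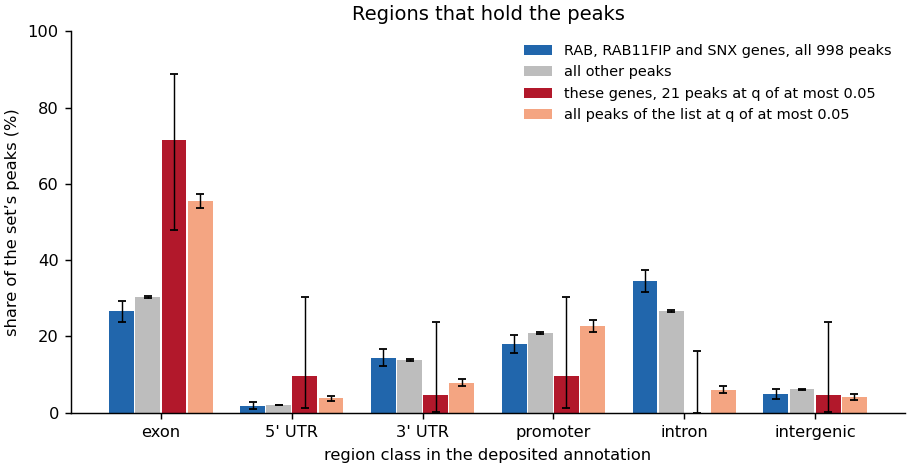
Share of peaks by region class (percent, with 95% Clopper-Pearson intervals) for the 998 peaks of the trafficking genes (blue) beside all other peaks (grey), and for their 21 peaks at q of at most 0.05 (red) beside all peaks of the list at that q (orange). Exons hold 26.6% of the 998 peaks and 30.4% of all other peaks, and 71.4% of the 21 and 55.6% of all peaks at that q.

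The number of peaks differed between the rule used here and the nearest start for 54 of the 94 genes. Of 609 exon and intron peaks, 252 lay nearest to the start of another gene, and 59 of the 3′ UTR peaks had their summit outside the gene they were assigned to. RAB3GAP2 held 28 peaks by the rule and 2 by nearest start, and RAB3GAP1 24 and 3. RAB24 held 6 by the rule, all of them UTR peaks with the summit outside the gene, and 32 by nearest start, of which 26 lay in NSD1. By nearest start 13 genes reached q: RAB2A, RAB8B, SNX1, SNX9, SNX24 and SNX25 were lost, and RAB24, RAB35 and SNX22 appeared. The summits of all 21 peaks that reached q lay within the RefSeq span of their gene.

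Other genes of RAB traffic were described in the same way from 7 lists of 171 genes in all, without the trafficking genes above. A peak was found in 156 of them, with a median of 15 peaks per gene and a median peak fold of 1.89. By peak, 46 of 2807 reached q (1.64%, 1.202 to 2.18), against 1.63% of all peaks. By gene it was 37 (23.7%), against 11.3% of all genes. With 1 to 4 peaks it was 1 of 21 (4.76%, against 3.57% of all genes with as many), and with 5 to 9 peaks 2 of 29 (6.90%, against 8.69%). With 10 to 19 peaks it was 11 of 47 (23.4%, against 16.3%), and with 20 to 49 peaks 22 of 56 (39.3%, against 35.3%). Other RAB effectors had 14 of 41 genes and 15 of 789 peaks (1.90%) that reached q, among them APPL2, an effector of RAB5, at 6.26 (2.86 to 12.6), OCRL, a phosphoinositide phosphatase, at 6.14 (3.04 to 11.4), and SYTL5, an effector of RAB27, at 5.56 (2.43 to 11.7). GEFs had 8 of 35, with DENND4C at 5.67 (2.48 to 11.96), GAPVD1 at 5.10 and CCZ1 at 4.86. TBC domain GAPs had 8 of 33, with TBC1D9 at 5.50 (2.41 to 11.6), TBC1D9B at 4.99 and RABGAP1 at 4.86. HOPS and CORVET tethers had 2 of 9, TGFBRAP1 at 4.14 and VPS8 at 3.85. The exocyst had 2 of 9, EXOC8 at 4.78 and EXOC1 at 4.32. Retromer, retriever, CCC and WASH genes had 2 of 22, COMMD10 at 4.40 and WASHC2A at 3.76. The core retromer subunits, the partners of the nexins, did not reach q, with VPS35 at 2.64 (1.39 to 4.65), VPS29 at 2.39 (1.32 to 4.04) and VPS26A at 2.21 (0.922 to 4.96). Genes of RAB prenylation and recycling had 1 of 7 genes and 1 of 75 peaks (1.33%). The gene was that of the escort protein CHM, with 3.78 (1.53 to 9.22) on 3 fragments in an exon. The highest CHM peak, at 4.18, did not reach q.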

How the data were processed

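RNA of 1 CRTC2 precipitate and 1 input library of HCCLM3 cells was measured, and the deposited file is 1 list of annotated peaks. HISAT2, MACS2 and hg38 are named in the submitters' processing notes; versions, settings and the use of strand in peak calling were not given in the sources used here, so overlapping genes on opposite strands cannot be told apart. Per the file headers each peak has a fold enrichment, a linear ratio, and a score. The authors' −log10 p and −log10 q stand in a pair of deposited columns with spoiled headers, identified by place and values. The deposited score is the −log10 p times 10 without its decimals (100% of peaks) and was not used. The deposited control was taken to be the input library. The lowest −log10 p was 1.30, and the −log10 q was 0 for 88.8% of peaks.

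RIP fragments were recovered as the whole number that meets the fold and a Poisson p (pseudocount 1, tolerance 0.001). One was found for 100% of peaks and a single one for 97.5%; the method was tested on simulated data. Total library depth was not used. Python 3.11.15, pandas 2.3.3, numpy 2.4.6 and scipy 1.17.1 were used. Symbols were linked to gene IDs by the pair seen most often, since 177 IDs had several symbols. Genes were named if they reached q of 0.05, were among the 15 highest over exon and UTR peaks, the 5 with the most peaks, the 3 highest of a role or of a pathway list, or best known in their compartment; others were named after their values were seen. The members and lists were chosen with earlier results of these data known. Alternatives were the gene of the nearest start, at least 5 fragments, at most 1 kb, primary chromosomes, exon and UTR peaks, a fold of at least 4, peaks within 1 kb merged and, chosen after seeing the data, summits within the RefSeq gene. Peak sequences were not read because no genome was used.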

Additional observations from a re-analysis of the deposited data

How the results depend on the processing

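No paired analysis was possible because there was 1 library per group, and for the same reason no replicate could be left out. The count of 998 peaks was 221 with at least 5 fragments, 427 over exon and UTR peaks, 22 at a fold of at least 4 and 581 after merging. In the same order the share that reached q (2.10%) was 5.88%, 4.22%, 77.3% and 3.61%, and the median fold (1.89) was 1.98, 1.94, 4.59 and 1.94, or 1.84 at a width of at most 1 kb. The exon share (26.6%) was 56.6%, 62.1%, 72.7% and 31.8% in that order, 30.4% at a width of at most 1 kb, 22.5% by nearest start and 31.0% with summits within the gene. Genes with a peak (94) were 17 at a fold of at least 4 and 70 to 94 under the other alternatives. Genes that reached q (16) were 9 with at least 5 fragments, without RAB38, RAB8B, SNX13, SNX14, SNX24, SNX25 and SNX29, and 12 to 16 under the others, with 12 at a width of at most 1 kb, without RAB11FIP3, SNX14, SNX24 and SNX29. Limits on depth, region and fold select deeper or higher peaks by construction. Of 123 values of single genes recomputed, 1 left its interval, that of RAB11FIP3 (3.09 at a width of at most 1 kb). Another peak became the highest for 7 genes by nearest start, 6 with at least 5 fragments, 4 at that width and 2 over exon and UTR peaks. The other values are of the same peak, which cannot leave its own interval, so the count says little about stability. Genes left without a peak were not among the 123. RAB8B fell from 4.64 to 2.07 by nearest start, within its interval of 1.94 to 10.4. Leaving out peaks on alternative contigs took away 2 peaks and left the 16 genes as they were. Depth limits all of these values: peaks of 1 to 4 fragments make up most of the list, and intervals of highest peaks overlapped between every pair of paralogs compared.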
